A study of Rattus norvegicus with 13 samples.

Results

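The genes described here serve protein folding in the cytosol, the mitochondria and the endoplasmic reticulum, together with the sensors and transcription factors of the unfolded protein response. They were named in a list of 32 genes, and a gene was taken as measured where the array had a probe set annotated to it alone, with the brightest such probe set used where there were several. By this rule 29 of the 32 were measured, out of 14506 genes in all: 7 of 9 cytosolic and nuclear heat shock genes, both mitochondrial ones, 13 of 13 folding and degradation genes of the endoplasmic reticulum, and 7 of 8 sensors and transcription factors. Hspa1a and Hspa1b, the inducible Hsp70 genes, shared 1 probe set that was also annotated to Hspa1l, and Ern1 was not analysed here. Signals combine the short probes of a probe set and are on the log2 scale, so a difference of 1 is a doubling. Signals of different probe sets are not comparable with each other.

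The samples were brains without cerebellum of male F344 rats, an inbred strain, aged 15 months. Their mothers ate a control diet (7 arrays) or a high fructose diet (6 arrays) from day 1 of gestation through lactation, and all offspring ate chow after weaning on day 20. No allele, transgene or drug distinguished the groups. The labels name neither the litter nor the animal of a sample, and p-values therefore reflect only how far these samples vary, which may be technical. Array medians lay between 7.99 and 8.07. The distributions of control replicates 1 and 2 were the narrowest, with interquartile ranges of 2.19 and 2.15 against 2.26 to 2.50 in the others. Several results are also given without this pair, and a result given once may still depend on it. The tissue was not separated into cell types, so a lower signal from fewer cells and one from less RNA per cell cannot be told apart.

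Heat shock proteins are chaperones that hold, fold or refold other proteins. In the cytosol, Hsp70, Hsp90 and their J-domain partners are under the control of heat shock factor 1, which binds repeated GAA units in promoters, the heat shock element. Unfolded protein in the endoplasmic reticulum is sensed by the membrane proteins PERK (Eif2ak3), IRE1 (Ern1) and ATF6, which act through the factors ATF4, XBP1 and ATF6 itself to raise chaperones of that compartment, in part through the endoplasmic reticulum stress response element. Neurons make and secrete much protein over a long life, and both systems are studied in ageing brain for their role in clearing misfolded protein.

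The promoters of the 2 systems carried different elements, and the stretches that hold them are shown. The genes were named as members of these systems, so the matches are descriptions and not independent support. Promoter windows from RefSeq (build GRCr8, 250 bases before to 50 after a start site) were found for 24 of the 32 genes, 23 of them measured. The heat shock element was searched, on both strands, as 3 units GAA, TTC and GAA with 2 free bases between neighbours, and stood in 3 of 7 cytosolic genes with a window (Hspa8, Hsph1 and Dnaja1) and in both mitochondrial genes, against 0.798% of 33469 windows of all genes. It stood in 0 of 10 genes of the endoplasmic reticulum and 0 of 5 sensors and factors. In Dnaja1 the match lay after the start site, so its sequence is not shown. The matches are in capitals and the sequences run 5′ to 3′ on the gene's strand. In Hspe1 overlapping matches on both strands form a run of GAA and TTC units.
Hspa8 (chr8:50080289-50080483, plus strand): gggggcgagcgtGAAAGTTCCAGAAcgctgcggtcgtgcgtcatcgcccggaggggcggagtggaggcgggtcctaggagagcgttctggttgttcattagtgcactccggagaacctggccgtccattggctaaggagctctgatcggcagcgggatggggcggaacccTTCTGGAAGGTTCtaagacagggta
Hsph1 (chr12:10427320-10427356, plus strand): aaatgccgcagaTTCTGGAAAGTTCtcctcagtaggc
Hspe1 (chr9:64084250-64084291, plus strand): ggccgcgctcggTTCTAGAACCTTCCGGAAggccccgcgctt

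The same run served as the upstream region of Hspd1 on the other strand. Hspd1 and Hspe1 lie head to head, with start sites 290 bases apart, and their windows shared 211 bases. The endoplasmic reticulum stress response element was searched, on both strands, as CCAAT followed after 9 free bases by CCACG, and stood in 5 of 10 genes of the endoplasmic reticulum and in Xbp1, against 0.0657% of all windows. The shorter second form, ATTGG and CCACG with 1 free base between them, stood in Hyou1 and Herpud1, against 0.0508% of all windows. Neither form was found in the 7 cytosolic genes with a window or in the 2 mitochondrial genes. Those 7 include Hspa1a, which was not measured alone, and not Hsp90aa1, for which no window was found. ATTGG is CCAAT read on the other strand. The matches, in either orientation, are in capitals below.
Hspa5 (chr3:38452961-38453003, plus strand): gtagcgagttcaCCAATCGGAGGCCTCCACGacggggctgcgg
Hsp90b1 (chr7:23012335-23012481, minus strand): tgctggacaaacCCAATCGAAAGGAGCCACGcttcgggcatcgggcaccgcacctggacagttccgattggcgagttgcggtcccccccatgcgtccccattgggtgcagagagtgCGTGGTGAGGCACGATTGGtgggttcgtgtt
Calr (chr19:40213123-40213165, plus strand): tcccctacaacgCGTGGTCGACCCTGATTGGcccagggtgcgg
Canx (chr10:35158057-35158099, minus strand): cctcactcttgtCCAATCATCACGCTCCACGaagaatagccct
Creld2 (chr7:121789227-121789269, plus strand): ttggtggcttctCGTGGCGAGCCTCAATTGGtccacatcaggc
Xbp1 (chr14:84604546-84604588, plus strand): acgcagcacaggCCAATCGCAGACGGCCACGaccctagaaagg
Hyou1 (chr8:53602682-53602816, plus strand): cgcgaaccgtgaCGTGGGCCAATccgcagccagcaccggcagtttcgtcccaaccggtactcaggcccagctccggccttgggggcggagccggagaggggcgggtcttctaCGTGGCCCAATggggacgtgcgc
Herpud1 (chr19:10614809-10614843, minus strand): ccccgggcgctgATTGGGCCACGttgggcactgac

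An ATF4 element, searched as TGATGNAAT on both strands, stood in 1.09% of all windows and in 0 of the 24 genes. A match describes the letters of a window and is not evidence of binding in these brains, and a window without a match shows only that these letters were not in it.

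No member of either system passed the test between the maternal diet groups. In a limma fit over 15633 probe sets, 0 of the 29 members had an adjusted p of 0.05 or less (0% of all probe sets tested), with an adjusted p of 0.9998 for each. At an unadjusted p under 0.05 there were 0 members, where 2.23% of all probe sets lay, 1.33% with a positive and 0.896% with a negative difference. Other settings put 0 to 2 members there, none of which passed after adjustment. They were Hyou1 with quantile or cyclic loess normalization or without control replicates 1 and 2, Dnajb9 without control replicate 1, Canx without control replicate 8, and Atf3 without control replicate 7, control replicate 8 or fructose replicate 8. Of all 15633 probe sets, 476 lay there with quantile normalization, 489 after cyclic loess and 717 without control replicates 1 and 2. With single arrays left out, 248 to 527 of the 15633 lay there. The groups overlapped for each of the 29 members (0.0384% of all probe sets tested did not overlap). The differences, fructose minus control, ran from -0.11 to 0.090 with a median of 0.023, and 17 were above 0 and 12 below, beside a median of 0.0055 and 54.0% above 0 over all genes. The 95% interval lay within 1.2-fold for 27 of the 29 and within 1.5-fold for all 29, against 84.5% within 1.2-fold over all genes. Hspb1 and Trib3 were the 2 exceptions. The share over all genes was not matched for signal level.

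**Figure D1:**
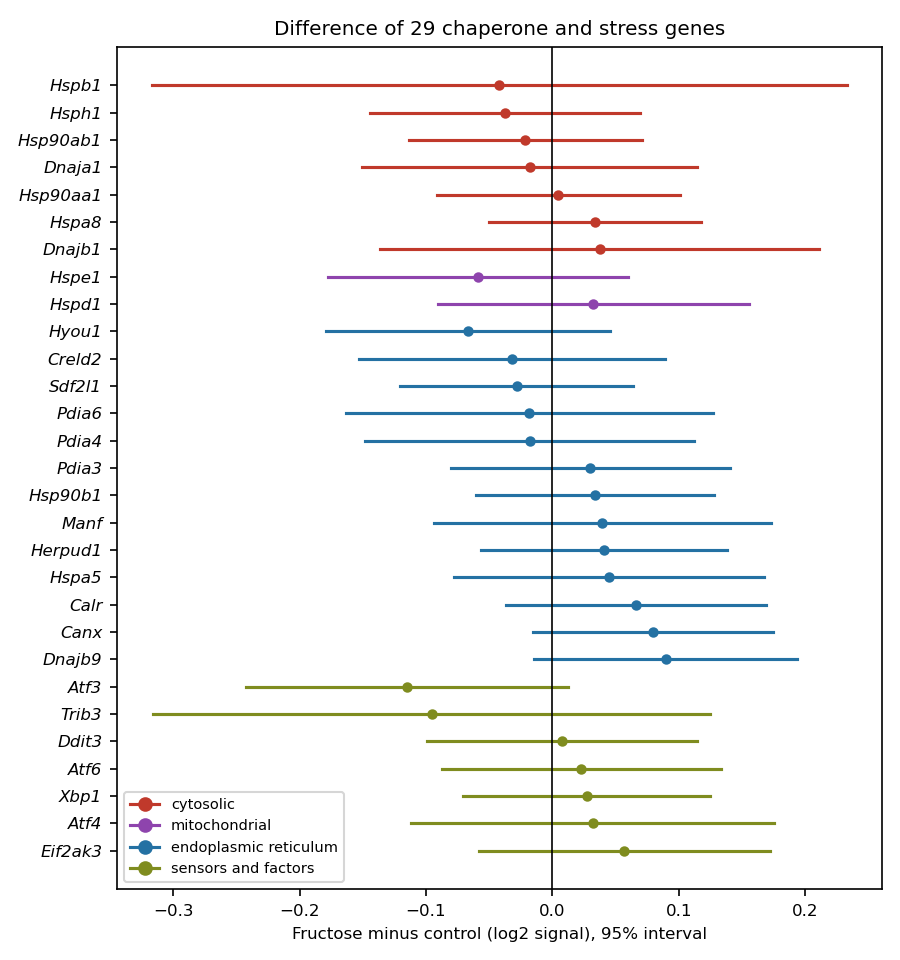
Differences between the groups for the 29 measured genes, on the x axis in log2 signal (fructose minus control, 6 and 7 arrays), with points for the estimate and lines for the 95% interval from limma, coloured by class. Every interval includes 0, and the widest are those of Hspb1 and Trib3.

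Among cytosolic chaperones, 3 of the 7 measured genes had a difference above 0 and 4 below, with a median of -0.018, and the largest in size was -0.042. The median was -0.036 after cyclic loess normalization, which removes trends with signal level between arrays, and -0.0066 without the dim probe set of Hspb1. Hspa8 encodes Hsc70, the constitutive Hsp70 of neurons. Its signals ran from 13.27 over a median of 13.32 to 13.42 in control arrays and from 13.28 over 13.36 to 13.44 in fructose arrays. The groups covered nearly the same span, with 5 of 6 fructose arrays above the control median, and the difference was 0.034 ± 0.039 (SE, exact permutation p = 0.265). Hspa8 had 8 probe sets annotated to it alone, with differences between -0.009 and 0.035, 7 of them above 0. They were read from the same arrays and are not independent measurements. Near-identical copies of this gene exist in mammalian genomes, so its signal is uncertain to that extent. The probe set common to Hspa1a, Hspa1b and Hspa1l, which can be assigned to none of them and is not counted as a member, was at 8.72 ± 0.063 (SD, n = 7) in the control arrays, beside 8.70 ± 0.13 (SD, n = 6) in the fructose arrays.

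Dnajb1 and Dnaja1 encode J-domain proteins, which hand substrates to Hsp70. Dnajb1 lay between 8.61 and 8.88 in control arrays (median 8.79) and between 8.53 and 9.14 in fructose arrays (median 8.82). Both the lowest and the highest of the 13 values belonged to the fructose group, replicates 4 and 7, and the difference of 0.038 ± 0.081 (SE) was -0.028 without fructose replicate 7 and -0.018 without the narrow control replicates 1 and 2. Dnaja1 lay between 10.98 and 11.27 (median 11.06) in control and between 10.92 and 11.28 (median 11.05) in fructose arrays. The difference was -0.018 ± 0.062 (SE), and here too the extremes of both ends were fructose arrays, replicates 1 and 4.

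Hsp90aa1 and Hsp90ab1 encode the inducible and the constitutive Hsp90 of the cytosol, which mature kinases and steroid receptors. Hsp90aa1 lay between 12.11 and 12.25 (median 12.14) in control and between 12.08 and 12.27 (median 12.14) in fructose arrays, a difference of 0.0048 with a 95% interval from -0.091 to 0.10. Hsp90ab1 lay between 12.26 and 12.48 (median 12.41) and between 12.28 and 12.43 (median 12.38), a difference of -0.021 with an interval from -0.11 to 0.071. Both genes had closely placed medians and overlapping ranges. Hsph1, the large Hsp110 chaperone that exchanges nucleotide on Hsp70, lay between 9.96 and 10.26 (median 10.08) in control and between 9.96 and 10.07 (median 10.06) in fructose arrays. All 6 fructose arrays were below the control median, and the difference was -0.037 ± 0.050 (SE).

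Hspb1 encodes the small heat shock protein Hsp27, which binds unfolded protein without ATP. It varied most of all members, with a standard deviation within groups of 0.26, above that of 95.5% of genes. Control arrays ran from 6.72 over 6.85 to 7.68 and fructose arrays from 6.71 over 6.92 to 7.08. The value of 7.68 was that of control replicate 8 alone, with the next control array at 6.99, and the difference of -0.042 ± 0.13 (SE) became 0.080 without that array. In the same array the mean of 9 of 10 astrocyte markers was the highest of the 13 (10.99, others 10.50 to 10.86), as were those of 9 of 9 microglia markers (8.98, others 8.49 to 8.84) and 8 of 8 cerebellum markers (7.76, others 7.29 to 7.49), and their part in the Hspb1 value was not tested.

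The mitochondrial pair had 1 difference above 0 and 1 below. Hspd1 and Hspe1 encode Hsp60 and Hsp10, the barrel and the lid of the mitochondrial chaperonin. Hspd1 lay between 9.79 and 10.11 (median 9.85) in control and between 9.84 and 10.05 (median 9.92) in fructose arrays, a difference of 0.033 ± 0.058 (SE) that was -0.0065 without control replicates 1 and 2. Its other probe set, which was dimmer, differed by 0.093. Hspe1 lay between 9.56 and 9.89 (median 9.70) in control and between 9.58 and 9.75 (median 9.66) in fructose arrays, with a difference of -0.059 ± 0.056 (SE). Control replicate 5 was the highest array for both genes.

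Of the 13 genes of the endoplasmic reticulum, 8 had a difference above 0 and 5 below, with a median of 0.034. None passed the test, and leaving out the narrow control pair gave a median of 0.014. Scaling mattered as much: the median was 0.0093 with quantile normalization and 0.010 after cyclic loess. The lectin chaperones Canx and Calr, which retain glycoproteins until they are folded, were among those with the largest differences above 0. Canx ran from 12.09 over 12.14 to 12.27 in control and from 12.18 over 12.23 to 12.37 in fructose arrays. All 6 fructose arrays lay above the control median, and the difference was 0.079 ± 0.045 (SE, exact permutation p = 0.0583 before adjustment). It was 0.040 with quantile normalization. Calr ran from 11.14 over 11.31 to 11.35 and from 11.29 over 11.30 to 11.49, and only 2 of 6 fructose arrays were above the control median. Its difference of 0.066 was 0.036 without fructose replicate 4 and 0.027 without control replicates 1 and 2.

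Dnajb9 encodes ERdj4, a J-domain partner of BiP and a target of XBP1. Its difference of 0.090 ± 0.049 (SE) was the largest above 0 of all members (exact permutation p = 0.0769 before adjustment). Control arrays ran from 8.64 over 8.83 to 8.91 and fructose arrays from 8.83 over 8.86 to 8.99. All 6 fructose arrays lay above the control median, and control replicate 1 was above 5 of them.

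Hspa5 encodes BiP, the Hsp70 of the endoplasmic reticulum that also holds the stress sensors inactive. It ran from 11.44 over 11.50 to 11.77 in control and from 11.47 over 11.61 to 11.70 in fructose arrays, a difference of 0.045 ± 0.058 (SE). The highest value was that of control replicate 3. Hsp90b1, which encodes the Hsp90 of this compartment, GRP94, ran from 11.37 over 11.52 to 11.56 and from 11.46 over 11.51 to 11.64, a difference of 0.034 ± 0.044 (SE). Hyou1, the nucleotide exchange factor of BiP, stood on the other side. Control arrays ran from 9.16 over 9.35 to 9.47 and fructose arrays from 9.21 over 9.28 to 9.31, so that all 6 fructose arrays lay below the control median. The difference was -0.067 ± 0.053 (SE, exact permutation p = 0.205). The 2 lowest control values were those of control replicates 1 and 2 (9.20 and 9.16), and without this pair the difference was -0.13, which did not pass after adjustment either.

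The disulfide isomerases Pdia3, Pdia4 and Pdia6, which form and shuffle disulfide bonds, differed by 0.030, -0.018 and -0.018. Pdia3 ran from 11.94 over 12.08 to 12.16 in control and from 11.98 over 12.05 to 12.24 in fructose arrays. Pdia4 ran from 8.50 over 8.65 to 8.85 and from 8.58 over 8.65 to 8.84. Pdia6 had the widest spread of the class, a standard deviation within groups of 0.13, with values from 9.38 over 9.63 to 9.87 in control and from 9.46 over 9.60 to 9.67 in fructose arrays. The fructose arrays of Pdia4 and Pdia6 lay within the control span, and the highest array of Pdia3 was a fructose array.

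Manf, a secreted factor that is retained with BiP and protects neurons, showed unlike spreads in the groups. Its fructose arrays lay at 8.18 to 8.25 (SD 0.023, n = 6) and its control arrays at 7.94 to 8.33 (SD 0.15, n = 7). The 2 lowest control values, 7.94 and 8.01, belonged to control replicates 2 and 1, and without that pair the difference of 0.040 was -0.043. Sdf2l1, a cofactor of BiP, had the narrowest spread of the class (0.065). It ran from 7.85 over 7.92 to 8.10 in control and from 7.85 over 7.92 to 7.98 in fructose arrays, a difference of -0.028, and its highest value was that of control replicate 1.

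Creld2, an isomerase of the same compartment, ran from 7.51 over 7.70 to 7.82 in control and from 7.51 over 7.68 to 7.74 in fructose arrays, a difference of -0.032. Herpud1, a membrane protein of the degradation complex, ran from 8.50 over 8.58 to 8.69 and from 8.51 over 8.64 to 8.71, a difference of 0.041. The groups of both genes covered nearly the same span.

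Fructose replicate 4 was the highest of the 13 arrays for Canx (12.37), Calr (11.49), Dnajb9 (8.99) and Hsp90b1 (11.64). The mean of 9 of 9 meningeal and fibroblast markers was also highest in that array, at 8.46, with the other fructose arrays at 7.43 to 8.05 and control arrays at 7.29 to 8.33. Without fructose replicate 4 the differences were 0.054 for Canx and 0.067 for Dnajb9. The part of the meningeal content in these values was not tested.

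**Figure D2:**
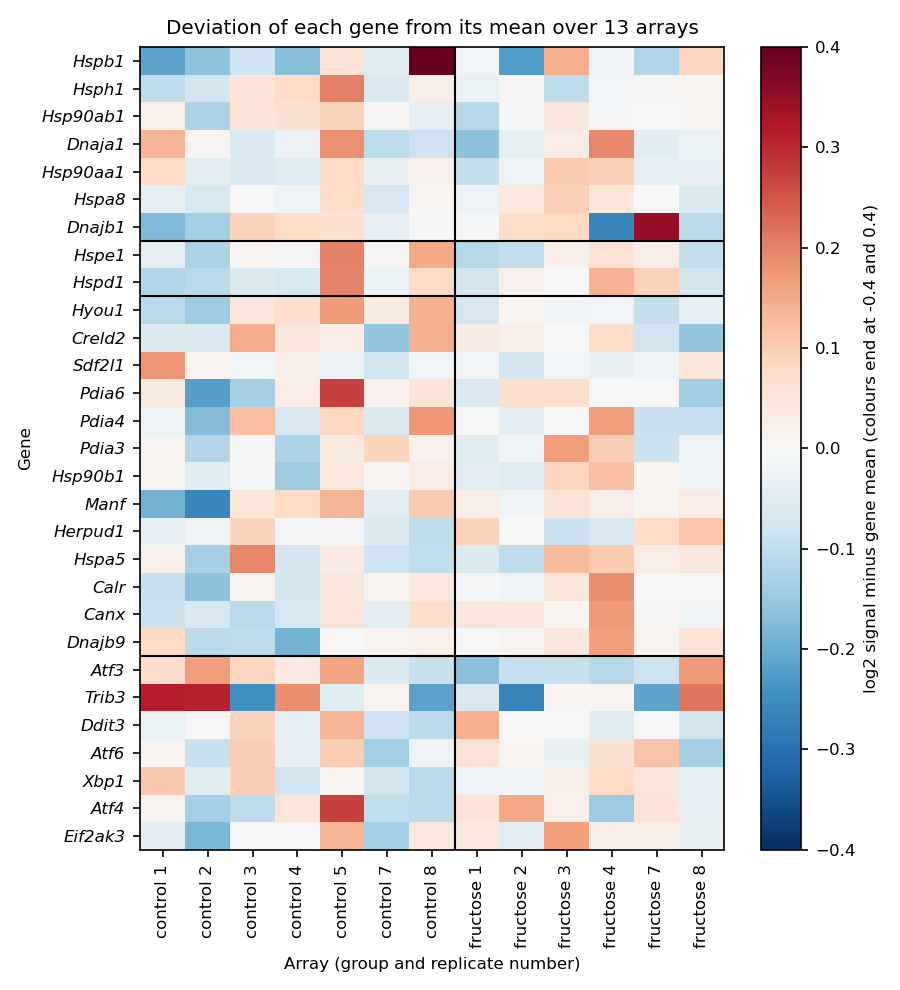
Signal of each measured gene (rows, in 4 classes from cytosolic at the top to sensors and factors at the bottom) in each of the 13 arrays (columns) as the deviation from the gene's mean in log2 signal, red above and blue below. Control replicate 5 is above the mean for all 7 cytosolic genes, control replicate 2 is below it for 12 of 13 genes of the endoplasmic reticulum, and Hspb1 in control replicate 8 lies beyond the end of the colour scale.

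Of the 7 sensors and transcription factors, 5 had a difference above 0 and 2 below, with a median of 0.023. The median was 0.0067 with quantile normalization, 0.0047 after cyclic loess and 0.012 without control replicates 1 and 2. Eif2ak3, the sensor kinase PERK, ran from 8.82 over 9.01 to 9.14 in control and from 8.96 over 9.03 to 9.17 in fructose arrays, a difference of 0.057 ± 0.054 (SE). Atf6, the sensor that is cut and moves to the nucleus, ran from 9.10 over 9.21 to 9.33 and from 9.10 over 9.26 to 9.35, a difference of 0.023. Xbp1, whose messenger is spliced by IRE1, ran from 10.64 over 10.69 to 10.85 and from 10.71 over 10.75 to 10.82, a difference of 0.027. All 6 fructose arrays were above the control median of Xbp1, while the highest value was that of control replicate 1. The signals of these 3 genes overlapped over most of their range. The array value of Xbp1 sums spliced and unspliced messenger, so it does not measure IRE1 activity.

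Atf4, the factor translated when PERK or its sister kinases act, ran from 9.41 over 9.45 to 9.82 in control and from 9.40 over 9.58 to 9.70 in fructose arrays, a difference of 0.032 ± 0.067 (SE). Ddit3 encodes CHOP, which favours cell death under lasting stress. It lay between 7.91 and 8.15 (median 7.99) in control and between 7.94 and 8.16 (median 8.02) in fructose arrays, a difference of 0.0077. Atf3, a stress-induced factor, had the largest difference of all 29 genes in size, -0.11 ± 0.060 (SE, exact permutation p = 0.0816 before adjustment). Its control arrays ran from 6.36 over 6.51 to 6.61 and its fructose arrays from 6.28 over 6.36 to 6.62. The groups overlapped at both ends: 5 of the 6 fructose arrays lay below the control median, while fructose replicate 8, at 6.62, was the highest of all 13. Without that array the difference was -0.16, which did not pass after adjustment. Without control replicates 1 and 2 the Atf3 difference was -0.089. Trib3, a pseudokinase induced by ATF4 and CHOP, ran from 6.44 over 6.70 to 7.0 and from 6.42 over 6.66 to 6.90. Its 2 highest values were those of control replicates 1 and 2, and the difference of -0.095 ± 0.10 (SE) was 0.012 without that pair.

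The contrast between the 2 systems differed between the groups by less than its standard deviation in either group. That difference was not tested. The mean deviation of the 7 cytosolic genes from their own means over the 13 arrays was 0.0028 ± 0.073 (SD, n = 7) over control arrays against -0.0032 ± 0.041 (SD, n = 6) over fructose arrays. For the 13 genes of the endoplasmic reticulum it was -0.0093 ± 0.061 (SD, n = 7) and 0.011 ± 0.039 (SD, n = 6). The cytosolic minus the endoplasmic reticulum mean was 0.012 ± 0.033 (SD, n = 7) over control arrays against -0.014 ± 0.042 (SD, n = 6) over fructose arrays, with ranges from -0.023 to 0.051 and from -0.072 to 0.038 that overlapped. Without control replicates 1 and 2 the control value was 0.016 ± 0.036 (SD, n = 5). The highest value of this contrast, 0.051, was that of control replicate 8, where 4 of 7 cytosolic genes were above their own means. In that array Hspb1 deviated by 0.75, and the class means are not scaled by the spread of each gene.

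Some arrays were high or low for both systems. Control replicate 5 was highest for the cytosolic mean (0.11) and next to highest for the endoplasmic reticulum mean (0.066), with 7 of 7 cytosolic and 10 of 13 endoplasmic reticulum genes above their own means. Control replicate 2, which has the narrowest distribution, was lowest for both, at -0.086 and -0.11. Fructose replicate 4 parted the systems most, with 0.0061 for the cytosolic and 0.078 for the endoplasmic reticulum genes. Control replicate 1 was at 0.063 for the sensors and factors and at -0.041 and -0.019 for the cytosolic and endoplasmic reticulum genes.

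**Figure D3:**
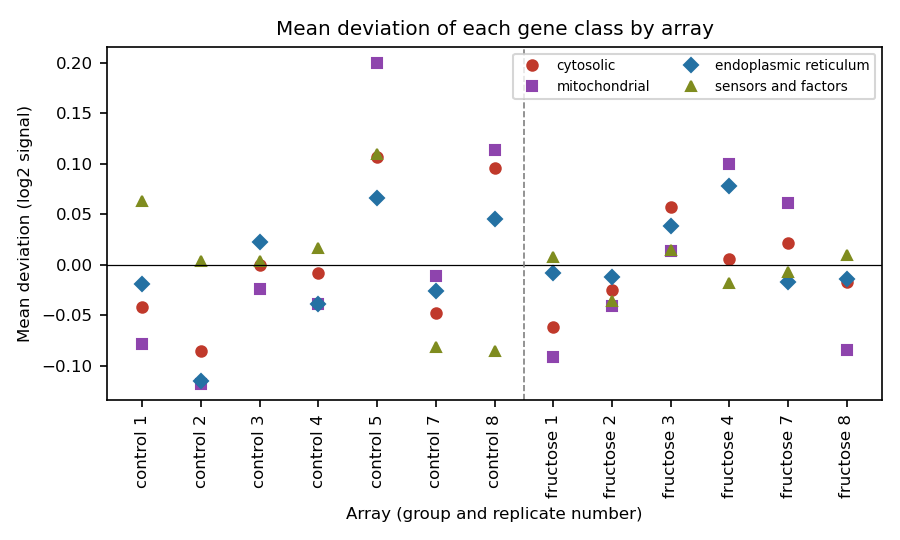
Mean deviation of the genes of each class from their own means (y axis, log2 signal) in each of the 13 arrays (x axis), with control arrays left and fructose arrays right of the dashed line. Control replicate 5 is high and control replicate 2 low for cytosolic, mitochondrial and endoplasmic reticulum genes alike, and the groups overlap for each class.

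With group means removed, pairs of genes across the 2 systems correlated over the arrays about as much as pairs within them. The median Pearson correlation was 0.26 over 21 cytosolic pairs, 0.33 over 78 endoplasmic reticulum pairs and 0.34 over the 91 pairs that cross the systems, beside 0.015 over all 105204765 pairs of genes. Pairs of endoplasmic reticulum genes with sensors and factors stood at 0.056, pairs of cytosolic genes with them at 0.25 and pairs among them at 0.15. After cyclic loess normalization the medians were 0.11, 0.18 and 0.10 for the first 3, beside -0.0005 over all pairs. Those with sensors and factors were then -0.033, 0.067 and 0.14, in the order given. Every pair shares the same 13 arrays, and these medians are descriptions. Members with a heat shock element (Hspa8, Hsph1, Dnaja1, Hspd1 and Hspe1) had a median correlation of 0.51 among themselves and those with an endoplasmic reticulum element one of 0.20, with 0.37 between the sets. After cyclic loess these were 0.33, 0.14 and 0.19. Single pairs ran from 0.17 to 0.90 in the first set and from -0.56 to 0.75 in the second. In the first set the cytosolic pairs stood at 0.43 (Hspa8 with Hsph1), 0.48 (Hspa8 with Dnaja1) and 0.17 (Hsph1 with Dnaja1). Hspd1 and Hspe1, at 0.90, had medians of 0.57 and 0.65 with endoplasmic reticulum genes and of 0.45 and 0.54 with cytosolic genes. The part of the elements in these correlations was not tested. The differences between the diet groups ran from -0.059 to 0.034 in the first set and from -0.067 to 0.079 in the second.

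Of 7 pairs set by role, 1 passed the permutation test after adjustment. Hspd1 and Hspe1, which share the promoter shown above, correlated at r = 0.90 over 13 arrays (rho = 0.84). The permutation p was 4e-05 for r and 0.00074 for rho, adjusted over 7 pairs to 0.00028 and 0.00518. The correlation was 0.90 without control replicates 1 and 2, 0.84 without the 2 arrays farthest from the median of Hspd1, and 0.80 after cyclic loess. With group means kept, r was 0.79. It was 0.94 in the 7 control arrays (exact p = 0.00159) and 0.82 in the 6 fructose arrays (exact p = 0.0736). By ranks the pair no longer passed after adjustment without the 2 farthest arrays (rho = 0.67, adjusted permutation p = 0.198) or after cyclic loess (rho = 0.69, adjusted permutation p = 0.0811).

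The other 6 pairs did not pass after adjustment. Pdia4 with Hyou1 had r = 0.64 (rho = 0.58, permutation p = 0.0194 and 0.0425, adjusted 0.0678 and 0.0991), where r was 0.48 without control replicates 1 and 2 and 0.34 after cyclic loess. Hspa5 with Hsp90b1 had r = 0.52 (rho = 0.62, adjusted permutation p = 0.157 and 0.0937) and Hspa8 with its partner Dnaja1 r = 0.48 (rho = 0.41, adjusted permutation p = 0.169 and 0.237). For Hspa8 with Dnaja1, r was 0.019 after cyclic loess and 0.65 without control replicates 1 and 2. Hspa8 with Hspa5, the Hsp70 proteins of the 2 compartments, had r = 0.41 (rho = 0.42, adjusted permutation p = 0.237 for both), and r was 0.11 after cyclic loess. Hsp90aa1 with Hsph1 stood at r = -0.042 (rho = -0.21, adjusted permutation p = 0.893 and 0.578) and Atf4 with its target Trib3 at r = -0.17 (rho = -0.12, adjusted permutation p = 0.683 and 0.705). Without the 2 arrays farthest from the median of the first gene, r was 0.62 for Pdia4 with Hyou1, 0.62 for Hspa5 with Hsp90b1, 0.25 for Hspa8 with Dnaja1 and 0.24 for Hspa8 with Hspa5. The planned pair of Hspa1b with Dnajb1 was not analysed here.

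**Figure D4:**
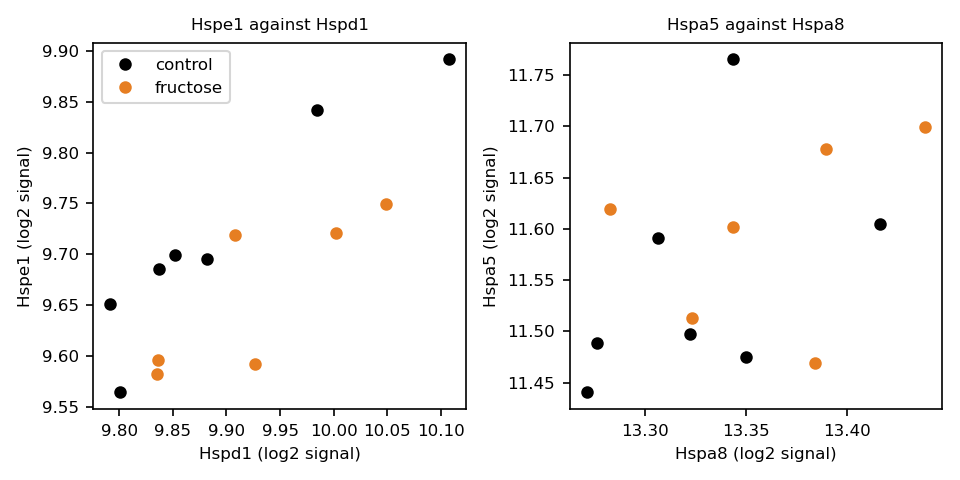
Log2 signals of Hspe1 against Hspd1 (left) and of Hspa5 against Hspa8 (right) in 7 control and 6 fructose arrays, 1 point per array. The chaperonin pair lies along a rising line (r = 0.79 for the values shown, 0.90 with group means removed). The Hsp70 pair scatters more widely (r = 0.45 for the values shown, 0.41 with group means removed).

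Other correlations were read from the 406 member pairs after the values were seen and are descriptions. Manf and Hyou1, both carried by the endoplasmic reticulum, had the highest at 0.92, which was 0.63 without control replicates 1 and 2. Pdia4 with Calr stood at 0.87 (0.82 without that pair) and Dnaja1 with Hsp90aa1 at 0.83 (0.82). The lowest was that of Hsp90aa1 with Herpud1, at -0.70. Herpud1 had a median correlation of -0.33 with the genes of its own class, where Calr had 0.59 and Pdia4 0.57.

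Most members varied little between arrays of a group. The median standard deviation within groups was 0.090 over the 29 genes, beside 0.12 over all genes, and 5 members lay above the median of all genes: Hspb1, Trib3, Dnajb1, Pdia6 and Atf4. Hspa8 was the steadiest at 0.052, a value that 3.16% of genes lay below. These comparisons with all genes were not matched for signal level. Hspb1, Atf3 and Trib3 were among the 30% of probe sets with the lowest mean signal.

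**Figure D5:**
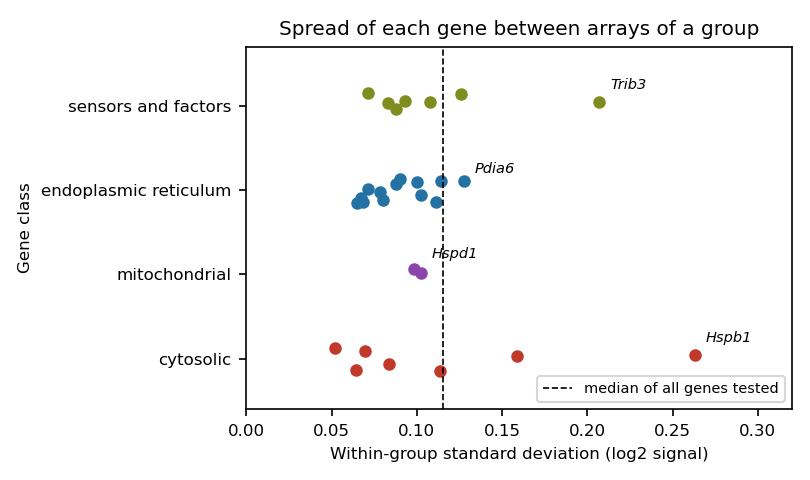
Standard deviation between arrays of a group (x axis, log2 signal, pooled over 7 control and 6 fructose arrays) for each gene, by class (y axis, jittered), with the widest gene of each class named. The dashed line marks the median of all 14506 genes (0.12), and 24 of the 29 members lie below it.

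Among 109 measured genes of the same pathways outside the list, of 124 named, 0 passed the test in either direction (0% of all probe sets tested), and 2 were at an unadjusted p under 0.05, both with a positive difference, beside 2.23% of all probe sets (1.33% positive). The median difference was 0.0099, with 67 above 0, beside 54.0% of all genes. Without control replicates 1 and 2 it was -0.020, with 38 above 0, beside 51.5% of all genes. Of 32 other cytosolic genes 21 were above 0, led by Dnaja4, a J-domain gene, which averaged 8.37 ± 0.085 (SD, n = 7) over control arrays against 8.50 ± 0.069 (SD, n = 6) over fructose arrays, and Cryab, the small heat shock protein of oligodendrocytes and astrocytes, with a difference of 0.24 ± 0.13 (SE). Of 7 mitochondrial chaperone genes 4 were above 0, with a difference of 0.091 ± 0.041 (SE) for Hspa9, the mitochondrial Hsp70. Other folding genes of the endoplasmic reticulum split 10 to 9, with the oxidase Ero1a at 0.085 and Cnpy3 at -0.054. Degradation genes split 12 to 3, with Derl1 at 0.11 and Faf2 at 0.062, and their median was -0.028 without the pair of narrow arrays. Further sensors and regulators split 9 to 7, with Traf2 at -0.054 and Atf6b at 0.060, and targets of ATF4 and CHOP split 11 to 9, with Aars1 at 0.089 and the amino acid transporter Slc7a5 at 0.10.

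Marker lists of 10 cell types and neighbouring tissues and of immediate early genes overlapped between the groups, and 0 of their 94 measured genes passed the test. The mean of 12 neuron markers ran from 11.40 to 11.53 in control and from 11.42 to 11.57 in fructose arrays, and that of 11 of 12 immediate early genes from 8.26 to 8.77 and from 8.35 to 8.73. Cerebellum markers had a negative difference in 7 of 8 genes (median -0.068), choroid plexus markers in 6 of 7 (median -0.053) and pituitary markers in 6 of 7 (median -0.055). Meningeal and fibroblast markers had a positive one in 8 of 9 (median 0.057), astrocyte markers in 6 of 9 (median 0.089) and neuron markers in 10 of 12 (median 0.033). Without control replicates 1 and 2 these medians were -0.072 for cerebellum, 0.024 for choroid plexus, 0.035 for pituitary, -0.0090 for meninges, 0.024 for astrocytes and 0.031 for neurons. Oligodendrocyte markers had a positive difference in 6 of 8 (median 0.069) and endothelial and mural markers in 7 of 9 (median 0.066). Microglia markers had one in 4 of 9 (median -0.0056) and blood markers in 2 of 5 (median -0.047). Without that pair the medians were 0.097, 0.00058, -0.10 (0 of 9 above 0) and -0.020, in the same order. Over all arrays the astrocyte, oligodendrocyte, endothelial and meningeal medians were higher than that of any class of members. The part of tissue content in the members' differences was not tested. The table has no detection calls, so absence of a marker cannot be read from it.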

How the data were processed

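RNA of 13 rat brain samples was hybridised to Affymetrix rat gene arrays. The deposited values were log2 signals that the authors made with RMA in R 3.0.1, per the submitters' processing notes, and they were used without further normalization. The build of the array annotation is not given in the sources used here. Of 29214 probe sets, 15633 had a gene symbol and 15310 had 1 symbol. Groups were compared with limma 3.58.1 (R 4.3.3, lmFit and eBayes) over all 15633 probe sets with Benjamini-Hochberg adjustment at 0.05. Single genes were also tested by exact two-sided permutation over 1716 splits, and correlations by 100000 two-sided resamples, or exactly with fewer than 10 arrays. The number of arrays limits the precision. The fit was tested on simulated data. The members and gene lists were chosen with earlier results of these data known. Members came from the list, and the other pathway genes named are the 2 with the smallest p in each list. Normalization, a filter on the dimmest 30% of probe sets, arrays left out, a replicate block and other probe sets were tried as alternatives. No label says that a shared replicate number pairs samples. Residuals of same-numbered arrays correlated at -0.34 to 0.19. Differently numbered arrays were not compared, so these values cannot decide whether the numbers pair samples. Python 3.11.15 and SciPy 1.17.1 were used.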

Additional observations from a re-analysis of the deposited data

Results flagged for a closer look

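In 10 of 58 groups of values (29 genes in 2 diet groups) the highest or lowest array stood apart from the rest by Dixon's criterion. Chance alone flags about 1 in 20, or 2.9. The share flagged over all genes is not given here, and the 58 groups share 13 arrays and hold correlated genes. The count is therefore not read as an excess among these genes. Fructose replicate 4 was the high array in 4 of the 10 groups: Canx at 12.37, Calr at 11.49, Dnajb9 at 8.99 and Pdia4 at 8.84. Without it the differences were 0.054, 0.036, 0.067 and -0.054. Hspb1 was 7.68 in control replicate 8, with the next control array at 6.99, and its difference without that array was 0.080. Atf3 was 6.62 in fructose replicate 8, with the next at 6.36, and its difference without it was -0.16. Ddit3 was 8.16 and Hsp90ab1 12.28 in fructose replicate 1, the highest and the lowest of that group, and the differences without it were -0.020 and -0.0012. Sdf2l1 was 8.10 in control replicate 1 and Hsph1 9.96 in fructose replicate 3, with differences of -0.00085 and -0.021 without them.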

How the results depend on the processing

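Under every alternative run, 0 of the members passed the adjusted threshold. At an unadjusted p under 0.05 there was 1 member with quantile normalization, 1 after cyclic loess and 1 without the narrow pair, where 476, 489 and 717 of 15633 probe sets lay. With single arrays left out there were 0 to 2 members, where 248 to 527 of 15633 probe sets lay. Signs turned for Hsp90aa1 with quantile (-0.014) and cyclic loess (-0.020) normalization. Without control replicates 1 and 2 they turned for Dnajb1 (-0.018), Dnaja1 (0.0081), Hspd1 (-0.0065), Sdf2l1 (0.0044), Manf (-0.043) and Trib3 (0.012). Other members kept their sign without that pair but changed in size. Hspb1 moved from -0.042 to -0.12, Hspe1 from -0.059 to -0.10 and Hsph1 from -0.037 to -0.079. Pdia4 moved from -0.018 to -0.060 and Pdia6 from -0.018 to -0.058, while Eif2ak3 fell from 0.057 to 0.022. In a fit with the replicate number as a block, which leaves out control replicate 5, signs turned for Dnaja1 (0.011) and Pdia6 (0.026). No label says that these numbers pair samples. Another probe set of Hspa8 gave -0.0090. The correlation of Hsp90aa1 with Hsph1 was 0.094 without the narrow pair and 0.19 without the 2 farthest arrays, and that of Atf4 with Trib3 was 0.13 after cyclic loess. The cytosolic median turned to 0.011 with the block. Leaving out single arrays gave ranges of -0.022 to 0.013 for the cytosolic median, 0.012 to 0.045 for the endoplasmic reticulum median and 0.0022 to 0.037 for that of sensors and factors. Quantile and cyclic loess normalization brought the latter 2 to between 0.0047 and 0.010. Over single arrays left out, signs turned within the ranges -0.080 to 0.080 (Hspb1), -0.028 to 0.094 (Dnajb1), -0.058 to 0.013 (Dnaja1), -0.016 to 0.024 (Hsp90aa1), -0.00042 to 0.050 (Pdia3), -0.054 to 0.0096 (Pdia4), -0.056 to 0.026 (Pdia6), -0.00068 to 0.065 (Manf) and -0.020 to 0.031 (Ddit3). The cause of these turns was not tested. The filter on dim probe sets left 26 members, without Hspb1, Atf3 and Trib3. The planned pair of Hspa1b with Dnajb1 was not run.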
